A study of Mus musculus with 30 samples.

Results

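The genes described here are 10 forkhead transcription factors of the mouse that belong neither to the FoxK nor to the FoxO subfamily: Foxa1, Foxa2, Foxa3, Foxm1, Foxp1, Foxp4, Foxj2, Foxj3, Foxn2 and Foxn3. They were taken by gene symbol from 49089 gene identifiers, of which 44 carry a forkhead symbol, and all 10 had enough reads to be tested. Of the other 34 forkhead genes, Foxk1 and Foxk2 are the genes that were knocked down, 8 more were tested and 24 were too low to test. The question put to them is whether other members of the family rise when Foxk1, Foxk2 or both are reduced.

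Messenger RNA was sequenced from AML12 cells, a mouse hepatocyte line derived from an animal that carried a transforming growth factor alpha transgene. Cells were transfected with a non-silencing siRNA (Control) or with siRNA against Foxk1 (FoxK1 KD), Foxk2 (FoxK2 KD) or both (DKD), so that the knockdown is transient and partial and Control cells went through transfection too. All cells were kept overnight without serum in medium with 0.1% albumin. They were then given either a mock treatment without insulin (basal) or 100 nM insulin for 6 h. The study describes the mock treatment as lasting 6 h too, while the labels give basal libraries as time 0. The 8 groups hold 4 libraries each, except Control with insulin and DKD with insulin, which hold 3, and the 30 libraries have totals between 2141460 and 5668270 counts. Nothing in the labels ties a library to a culture of its own, so the p-values measure the spread between these libraries, which may be technical.

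The forkhead domain is a winged-helix fold that binds DNA at variants of a short core sequence, and most family members read closely related sites. FoxA proteins open liver enhancers and help to set hepatocyte identity, FoxM1 drives genes of the G2 and M phases of the cell cycle, and FoxP proteins act mostly as repressors. FoxJ and FoxN proteins outside the ciliary FoxJ1 and the thymic FoxN1 are less well known and are expressed in many tissues, FoxN3 among them as a repressor linked to cell cycle checkpoints and to liver glucose metabolism.

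Hepatocyte markers were present in every group, with a summed level of 11 markers between 2130 and 2950 CPM (counts scaled to a common library total), although most of it came from keratins and Apob, and Alb (albumin) averaged 9.16 CPM in Control basal cells. The biliary markers Krt19, Sox9 and Spp1 were also high, with the 6 genes of that list summing to 1340 to 2830 CPM and Epcam at 0 counts in all libraries. Markers of fibroblasts, endothelium and immune cells summed to at most 4.43 CPM, with Pdgfra, Lyve1, Adgre1 and Cd3e at 0. In RNA from a whole culture, fewer cells of a type and less RNA per cell cannot be told apart. Among the libraries, Control basal replicate 1 stood apart, with a mean correlation of 0.9698 with its own group over all tested genes, against 0.9793 or more for the other 29. The 12 basal libraries of Control, FoxK1 KD and FoxK2 KD differed as a block from the other 18. Of all 11368 tested genes, 52 were lower and 83 higher in all 12. None of the 10 forkhead genes was among them, which at so small a share of all genes is no result about the members. DKD against Control in basal cells and the insulin effects in Control, FoxK1 KD and FoxK2 KD cross this split, as does the difference of the DKD insulin effect from that in Control, so that group and split cannot be told apart in them. The insulin effect in DKD, the single knockdowns in either state and DKD against Control after insulin do not.

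The knockdown itself is the check on the labels. Foxk1 was read at 87.61, 83.51, 66.24 and 88.39 CPM in the Control basal libraries and at 38.92, 27.4, 38.82 and 42.01 CPM in FoxK1 KD, a fold of 0.455 (edgeR quasi-likelihood test with Benjamini-Hochberg adjustment over all 11368 tested genes, adjusted p = 6.19e-08). Foxk2 was read at 149.7, 144.5, 132.7 and 133.9 CPM in Control and at 46.3, 49.42, 50.57 and 42.86 CPM in FoxK2 KD, a fold of 0.338 (adjusted p = 8.3e-15). In DKD basal cells the folds were 0.568 for Foxk1 and 0.357 for Foxk2, and after insulin they were 0.652 and 0.395. The groups did not overlap in any of these comparisons. Foxk2 was also lower in FoxK1 KD basal cells, at a fold of 0.835 (adjusted p = 0.0487). Each adjusted p below comes from the same fit, a gene is called changed at an adjusted p below 0.05, errors of fold changes are standard errors (SE), and errors of levels are SD.

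The promoters of Foxa1 and Foxa3 are shown because these members moved apart when the knockdowns were compared. The sequences are the 250 bases before the RefSeq transcript start on GRCm38.p6, written 5′ to 3′ on the gene's strand, and capitals mark a match to the forkhead core TGTTTAC or its reverse complement GTAAACA.
Foxa1, chr12:57546112-57546361, minus strand: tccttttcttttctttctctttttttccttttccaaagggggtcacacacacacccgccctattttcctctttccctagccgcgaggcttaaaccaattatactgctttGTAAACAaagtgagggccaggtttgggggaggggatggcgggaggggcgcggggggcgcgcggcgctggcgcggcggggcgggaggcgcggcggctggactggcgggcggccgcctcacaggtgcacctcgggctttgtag
Foxa3, chr7:19023540-19023789, minus strand: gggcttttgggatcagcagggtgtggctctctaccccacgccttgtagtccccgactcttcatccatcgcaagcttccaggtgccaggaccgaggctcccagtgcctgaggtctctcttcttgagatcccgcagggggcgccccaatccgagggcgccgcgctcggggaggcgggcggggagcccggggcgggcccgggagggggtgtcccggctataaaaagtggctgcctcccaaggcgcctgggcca
The RefSeq start of Foxa1 lies inside the longer gene interval that GENCODE gives for it. The match in Foxa1 lies 141 to 135 bases before the start, and it was the only one in the 12 windows that RefSeq gives for 8 of the 10 members. A match to either strand was found in 3.17% of all 32851 windows of the same length. Other variants of the core, among them the looser FoxK motif of the study, were not searched. Foxm1 and Foxn2 were not matched to a window.

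Per length of transcript, Foxp4 was the highest member in Control basal cells, at 17.9 ± 2.88 RPKM (n = 4), which is CPM divided by the exonic length in kilobases. Foxa2 followed at 14.7 ± 1.46 RPKM, Foxm1 at 13.3 ± 2.3, Foxp1 at 10.8 ± 0.926 and Foxa3 at 10.2 ± 1.63 RPKM. Foxa1 stood lower at 5.57 ± 0.481 RPKM, and Foxj2 (3.66 ± 0.658), Foxj3 (3.22 ± 0.62), Foxn2 (1.96 ± 0.638) and Foxn3 (1.05 ± 0.276 RPKM) were the lowest. In 7 of the 9 neighbouring pairs of this order the libraries overlapped, and gaps without overlap lay only between Foxa3 and Foxa1 and between Foxa1 and Foxj2. Foxn3 was lowest in all 8 groups, and Foxa2, Foxm1 and Foxp4 filled the first 3 places in each of them. Foxk2 itself stood at 26.7 ± 1.57 RPKM and Foxk1 at 10.7 ± 1.37 RPKM in the same cells, so Foxk2 was above every member.

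The sum over the members stayed near that of Control in FoxK2 KD and DKD and was lower in FoxK1 KD. No test was run on the sums. Foxk1 and Foxk2 together fell from 37.4 ± 2.6 RPKM in Control basal cells (n = 4) to 27.1 ± 2.6 in FoxK1 KD, 18.2 ± 1.7 in FoxK2 KD and 15.7 ± 1.5 RPKM in DKD. The 10 members summed to 82.2 ± 3.3 RPKM in Control, 75.2 ± 6.5 in FoxK1 KD, 82.5 ± 2.7 in FoxK2 KD and 82.5 ± 3.3 RPKM in DKD. After insulin the members summed to 80.5 ± 0.36 RPKM in Control (n = 3), 75.4 ± 5.7 in FoxK1 KD, 82.1 ± 2.6 in FoxK2 KD and 80.4 ± 4.3 RPKM in DKD (n = 3). The difference between DKD and Control was therefore 0.3 RPKM without insulin and -0.1 RPKM with it, against a fall of 21.7 and 21.2 RPKM in the FoxK sum. Between FoxK1 KD and Control the members' sum differed by -7 RPKM without insulin and -5.1 RPKM with it. The FoxK sum differed there by -10.3 and -7.4 RPKM. The share of the FoxK pair in the summed RPKM of these 12 genes went from 31.3 ± 2.1% in Control basal cells to 15.9 ± 0.93% in DKD basal cells.

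**Figure D1:**
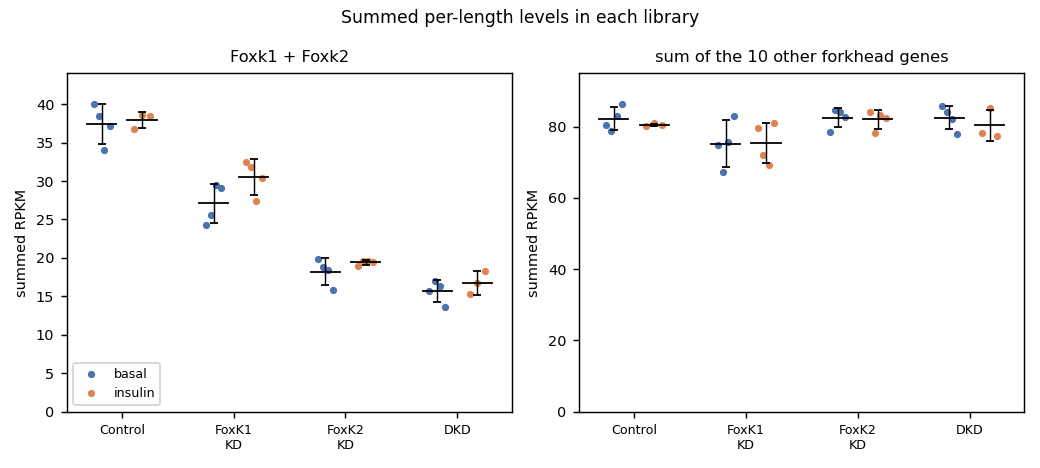
Summed RPKM of Foxk1 and Foxk2 (left) and of the 10 other forkhead genes (right) in each library, by siRNA group, for basal (blue) and insulin-treated (orange) cells; bars are means and whiskers SD. The FoxK sum steps down from 37.4 RPKM in Control basal cells to 15.7 in DKD, whereas the other sum is 82.2 and 82.5 RPKM in the same groups.

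Gene by gene, 0 of the 10 members were called in DKD against Control in basal cells, where 21.1% of all tested genes were. At an unadjusted p below 0.05 there were 3 members, Foxj2 and Foxa1 higher and Foxp4 lower, beside 3780 of all 11368 tested genes. DESeq2 called none and limma-voom called 1 of them, Foxj2 (adjusted p = 0.0496). The fitted changes ran from -0.20 to 0.37 on the log2 scale, and the highest upper bound among the members' 95% intervals was 0.64, that of Foxj2, which is a fold of 1.56. The members' median log2 fold change was -0.02 and that of all genes 0.00, with median sizes of 0.18 and 0.20. Over all genes the change in DKD basal cells rose with GC content (Spearman correlation 0.466 across 11346 genes), and its part in the members' values was not tested beyond the fit with a GC and length correction.

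FoxK1 KD in basal cells called 2 members, Foxa1 up and Foxa3 down, where 8.09% of all genes were called. FoxK2 KD called 0, against 0.378% of all genes, and 0 by DESeq2 or limma-voom. At an unadjusted p below 0.05 it held 2 members (Foxa1 lower, Foxn3 higher), beside 1272 of all 11368 tested genes. After insulin the calls were 0 of 10 in FoxK1 KD (3.59% of all genes), 0 in FoxK2 KD (0.0264%) and 0 in DKD (1.21%). At an unadjusted p below 0.05 these 3 comparisons held 4, 0 and 1 members, beside 1995, 685 and 1449 of all 11368 tested genes. DESeq2 and limma-voom called 0 members in each. The intervals reached up to a fold of 1.44 in DKD after insulin (Foxp1) and down to 0.578 (Foxn2).

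**Figure D2:**
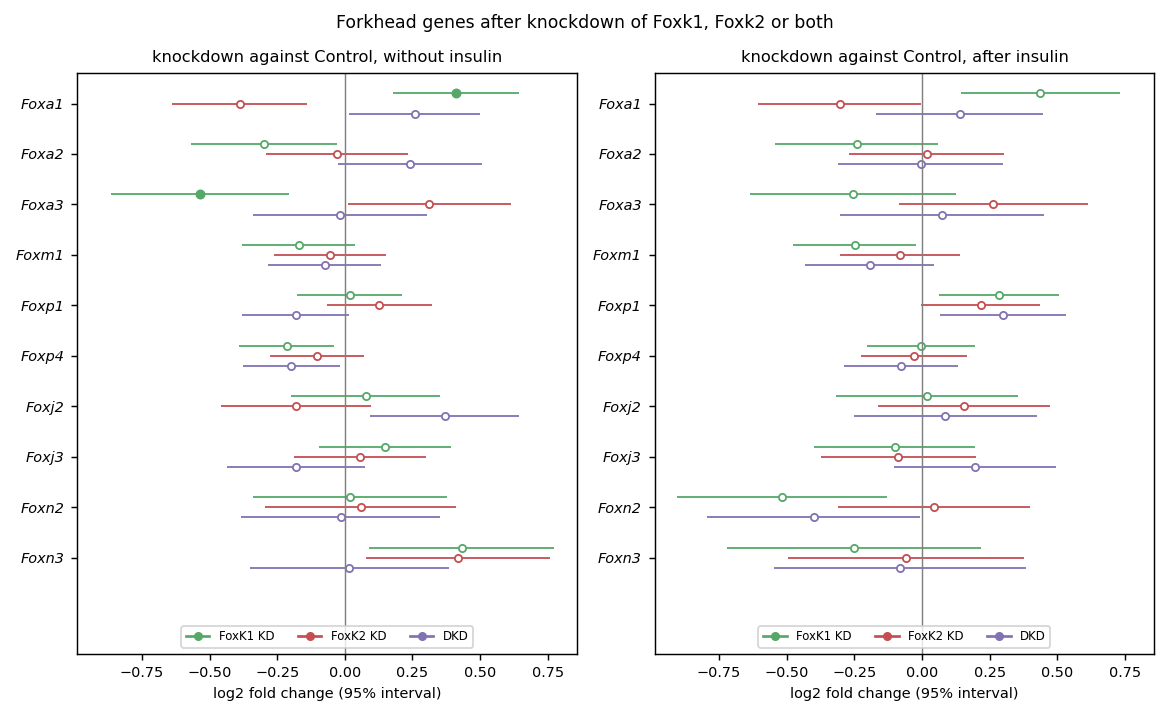
Log2 fold change of each member against Control in the 3 knockdowns, in basal (left) and insulin-treated cells (right), with 95% intervals; filled points are called at an adjusted p below 0.05. The called values are Foxa1 at 0.41 and Foxa3 at -0.53, both in FoxK1 KD basal cells, and the Foxa1 values of FoxK1 KD and FoxK2 KD lie on opposite sides of 0 in both panels.

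The FoxA genes, whose products open chromatin at liver genes, held the clearest differences between knockdowns. Foxa1 (chr12:57540628-57546916, minus strand, GRCm38) was read at 18.43, 18.5, 16.62 and 20.54 CPM in Control basal libraries. In FoxK1 KD it was read at 24.21, 22.12, 25.88 and 26.49 CPM, all above Control. In FoxK2 KD it was read at 16.36, 12.71, 15.56 and 12.53 CPM, all below Control. The change in FoxK1 KD was 0.41 ± 0.12 (log2, SE; adjusted p = 0.0285) and that in FoxK2 KD -0.39 ± 0.13 (adjusted p = 0.191). These 2 comparisons share the Control libraries. The call in FoxK1 KD was lost without Control replicate 1 or 3 or without FoxK1 KD replicate 3 or 4 (adjusted p between 0.0603 and 0.0755), while the change stayed between 0.36 and 0.47.

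Set directly against each other, a comparison added after these values had been seen, the single knockdowns differed in Foxa1 by 0.80 ± 0.12 in basal cells (edgeR, adjusted p = 9.8e-05), a fold of 1.74. In this comparison 2 of the 10 members were called, with 4.02% of all genes called. After insulin Foxa1 was read at 19.58, 19.04, 17.36 and 21.53 CPM in FoxK1 KD and at 9.7, 11.83, 12.44 and 12.91 CPM in FoxK2 KD. Whether these libraries are paired with the basal ones is not known. All FoxK1 KD libraries again lay above all FoxK2 KD libraries, by 0.74 ± 0.14 (adjusted p = 0.00139), and Foxa1 was the only member called there, with 3.63% of all genes called. Neither call was lost under any alternative or with any library left out, the change ranging from 0.74 to 0.86 in basal cells and from 0.65 to 0.79 after insulin over those settings. In DKD, where both genes were reduced, Foxa1 was read at 21.82, 22.98, 23.6 and 21.05 CPM in basal cells, all above Control, a change of 0.26 ± 0.12 (adjusted p = 0.138), and after insulin the change was 0.14 ± 0.16.

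Foxa3 (chr7:19013284-19023538, minus strand) went the other way. It was read at 23.25, 16.0, 22.82 and 20.71 CPM in Control basal libraries, at 16.29, 8.252, 13.64 and 17.93 CPM in FoxK1 KD and at 22.84, 32.71, 23.77 and 23.08 CPM in FoxK2 KD. FoxK1 KD overlapped Control but lay wholly below FoxK2 KD. Foxa3 fell by 0.53 on the log2 scale in FoxK1 KD (SE 0.168, adjusted p = 0.0426), and the value in FoxK2 KD was 0.31 ± 0.15 (adjusted p = 0.446). The call in FoxK1 KD was lost without Control replicate 1, 3 or 4 or FoxK1 KD replicate 2 or 3 (adjusted p between 0.058 and 0.173), and with the GC and length correction.

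The direct difference between FoxK1 KD and FoxK2 KD was -0.85 ± 0.16 for Foxa3 in basal cells (adjusted p = 0.0018), and that call held under every alternative and with each library left out. After insulin the FoxK1 KD libraries, at 13.55 to 19.95 CPM, again lay below those of FoxK2 KD, at 22.01 to 26.7 CPM, with a difference of -0.52 ± 0.18 that did not pass the test (adjusted p = 0.1). In DKD Foxa3 differed from Control by -0.02 ± 0.16 in basal cells.

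Foxa2 (chr2:148042877-148046969, minus strand), the FoxA gene with the highest level per length, was called in none of the comparisons. Its basal means were 34.8 ± 3.45 CPM in Control, 28.3 ± 5.54 in FoxK1 KD, 34.0 ± 4.77 in FoxK2 KD and 41.4 ± 6.36 CPM in DKD (n = 4 each). The 95% interval of its change ran from -0.57 to -0.03 in FoxK1 KD and from -0.02 to 0.51 in DKD, with adjusted p of 0.178 and 0.21.

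Foxp1 (chr6:98925338-99522721, minus strand), a repressor, was the member with the most reads before length is counted. Its Control libraries held 142.9, 132.3, 156.8 and 159.6 CPM without insulin and 104.2, 94.82 and 112.5 CPM with it, with no overlap, and it fell by 0.51 on the log2 scale (SE 0.111, adjusted p = 0.000694). It also fell in FoxK2 KD, by 0.42 (SE 0.1, adjusted p = 0.00163), from 138.6 to 172.5 CPM in basal libraries to 110.0 to 134.2 CPM. Neither call was lost when any single library was left out.

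In DKD the insulin groups overlapped, at 110.0, 132.6, 143.9 and 137.4 CPM without insulin and 135.4, 143.6 and 106.3 CPM with it, and the change in Foxp1 was -0.03 ± 0.11 (adjusted p = 0.883). The insulin effect in DKD differed from that in Control by 0.48 ± 0.16, with an unadjusted p of 0.004 and an adjusted p of 0.112, so the difference did not pass the test. It passed without DKD insulin replicate 3 (0.60, adjusted p = 0.0439), the library at 106.3 CPM. In FoxK1 KD the insulin effect was -0.24 ± 0.10 (adjusted p = 0.0656).

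Foxp4 (chr17:47867133-47924645, minus strand), the related gene with the highest level per length, was called in none of the 13 planned comparisons. Its group means lay between 70.5 and 88.1 CPM. The highest is that of Control basal cells, where replicate 1 held 109.2 CPM and the other 3 held 78.51 to 82.68 CPM. In DKD basal cells its change was -0.20 ± 0.09 (adjusted p = 0.121), and -0.09 without that library. With the GC and length correction, at an exonic GC content of 63.39% the highest of the members, it became -0.39 and was called (adjusted p = 0.00135).

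Foxm1 (chr6:128362967-128376146, plus strand), the cell cycle factor, was not called in any knockdown comparison. It was read at 58.41, 90.27, 79.64 and 76.78 CPM in Control basal libraries and at 69.77, 80.57, 69.41 and 70.09 CPM in DKD, with a change of -0.08 ± 0.11 and a 95% interval from -0.29 to 0.13. Insulin raised it in Control to 93.61, 110.3 and 85.51 CPM, a change of 0.33 ± 0.11 (adjusted p = 0.0259), and in FoxK2 KD by 0.31 ± 0.10 (adjusted p = 0.0263). In FoxK1 KD all insulin libraries, at 77.28 to 86.81 CPM, lay above the basal ones, at 59.41 to 75.75 CPM, but the change of 0.26 ± 0.11 did not pass (adjusted p = 0.0704), and that in DKD was 0.22 ± 0.12 (adjusted p = 0.206). The differences of these effects from that in Control were -0.08, -0.03 and -0.12, each with an SE of at least 0.154. The Control call was lost without Control basal replicate 1 or Control insulin replicate 2 (adjusted p between 0.0895 and 0.198). The FoxK2 KD call was lost without FoxK2 KD basal replicate 1 or 4 or insulin replicate 1 or 3 (adjusted p between 0.0501 and 0.118), and with the GC and length correction.

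Of 30 genes known as targets or partners of FoxM1 in mitosis, all tested, 11 fell and 0 rose in DKD basal cells, which is 36.7% called against 21.1% of all genes. In FoxK1 KD 9 fell and 0 rose in basal cells (30%, against 8.09%), and 4 fell and 0 rose after insulin (13.3%, against 3.59%). Their median log2 fold change in DKD was -0.18, against 0.00 over all genes. The genes of the list that fell in DKD had a median exonic GC content of 43.4%, against 50.3% for the rest of the list, and over the 30 genes the change rose with GC content (Spearman correlation 0.62), as it did over all genes. With the GC and length correction, applied to this list after seeing the data, 11 fell and 0 rose and the median was -0.19. Cdc25c, a phosphatase that starts mitosis, fell by 0.79 (SE 0.164, adjusted p = 0.000725), Top2a, which untangles chromosomes, by 0.62 (SE 0.0823, adjusted p = 1.91e-06) and Bub1, a spindle checkpoint kinase, by 0.55 (SE 0.112, adjusted p = 0.000581). After insulin only Top2a among the 30 was called in DKD (3.33%, against 1.21% of all genes), having fallen by 0.36 (SE 0.0948, adjusted p = 0.0471). The median log2 fold change of the list in DKD after insulin was -0.245, against 0.006 over all genes. With insulin in Control 7 of the 30 rose and 2 fell, a share of 30% called that is near the 25.4% of all genes. Mybl2, a transcription factor of the same phases, rose by 1.16 ± 0.15 (adjusted p = 4.93e-07), the mitotic kinase Aurka by 0.62 ± 0.13 (adjusted p = 0.000354) and Skp2, a ubiquitin ligase subunit, by 0.57 ± 0.13 (adjusted p = 0.00119). FoxK2 KD called 0 of the 30 in basal cells (0.378% of all genes) and 0 after insulin (0.0264%). At such low shares a count of 0 is no result about the list. With the GC and length correction 1 of the 30 fell in FoxK2 KD basal cells.

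Among 25 liver genes with known FoxA sites or FoxA dependence, 16 were tested, and in DKD basal cells 4 rose and 1 fell, 31.2% called against 21.1% of all genes, or 3 and 1 with the GC and length correction. Serpina1a and Serpina1b, near-identical antitrypsin genes whose reads can be split between them, rose by 1.09 ± 0.14 (adjusted p = 1.05e-06) and 0.85 ± 0.14 (adjusted p = 4.16e-05). After insulin the same antitrypsin genes were the 2 called in DKD (12.5%, against 1.21% of all genes), at 1.48 ± 0.17 and 1.18 ± 0.18. FoxK1 KD basal cells had 3 up and 1 down (25.0%, against 8.09%), and FoxK2 KD basal cells 2 up and 0 down (12.5%, against 0.378%). With insulin in Control 2 of the 16 rose and 3 fell, 31.2% called against 25.4% of all genes, a share near the background. Among them were Tat, a tyrosine-degrading enzyme, at -1.15 ± 0.33 (adjusted p = 0.0102), Afp, alpha-fetoprotein, at 1.01 ± 0.34 (adjusted p = 0.0252), and Serpina1b at -0.71 ± 0.17 (adjusted p = 0.0023).

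Foxj2 (chr6:122819914-122845366, plus strand), a widely expressed activator, was the member nearest to a rise in DKD basal cells. It was read at 14.46, 20.75, 20.59 and 22.5 CPM in Control and at 23.55, 29.09, 25.91 and 23.88 CPM in DKD, all higher, a change of 0.37 ± 0.14 (adjusted p = 0.0557). The change passed without Control replicate 4 (0.45, adjusted p = 0.0361) and was 0.25 without Control replicate 1 (adjusted p = 0.166). After insulin the DKD libraries, at 17.81, 17.03 and 20.34 CPM, overlapped those of Control, at 17.14, 15.8 and 19.49 CPM, and within DKD Foxj2 fell with insulin by 0.46 (SE 0.155, adjusted p = 0.0375). That call was lost without DKD basal replicate 2 or 3 or DKD insulin replicate 1 or 2 (adjusted p between 0.0588 and 0.122) and with the replicate block. The insulin effect in DKD differed from that in Control by -0.28 ± 0.22 (adjusted p = 0.611).

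Foxj3 (chr4:119537004-119629119, plus strand), its close relative, was not called against Control in any knockdown. With insulin it fell in FoxK1 KD, from 34.62, 38.62, 44.23 and 40.67 CPM to 32.14, 31.73, 27.09 and 22.64 CPM, with no overlap (log2 change -0.48, SE 0.136, adjusted p = 0.00724). It also fell in FoxK2 KD, by 0.37 (SE 0.13, adjusted p = 0.0306), a call lost without FoxK2 KD basal replicate 1 or insulin replicate 2 or 3 (adjusted p between 0.0552 and 0.136). The insulin effect was -0.22 ± 0.14 in Control (adjusted p = 0.255) and 0.15 ± 0.14 in DKD (adjusted p = 0.515), and the difference between these was 0.38 ± 0.20 (adjusted p = 0.386).

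Foxn2 (chr17:88440711-88490533, plus strand) rose with insulin in Control, from 7.939, 17.5, 14.14 and 18.21 CPM to 23.47, 21.81 and 25.15 CPM, with no overlap (log2 change 0.67 ± 0.19, adjusted p = 0.00762). It rose in FoxK2 KD as well, from 17.29, 15.3, 13.83 and 15.39 CPM to 22.49, 25.58, 19.72 and 29.29 CPM, again without overlap (0.65 ± 0.17, adjusted p = 0.00435). Both calls held with each library left out, though the Control change was 0.49 without Control basal replicate 1 (adjusted p = 0.0257). The Control call was lost with only the groups compared in the fit (adjusted p = 0.0844). In FoxK1 KD the groups overlapped and the change was 0.13 ± 0.20 (adjusted p = 0.639), and in DKD it was 0.28 ± 0.20 (adjusted p = 0.362).

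The difference of the Foxn2 insulin effect from that in Control was -0.54 ± 0.27 in FoxK1 KD (adjusted p = 0.383) and -0.38 ± 0.28 in DKD (adjusted p = 0.56), so neither passed. After insulin, the FoxK1 KD libraries, at 16.99, 17.92, 18.63 and 12.25 CPM, all lay below those of Control (-0.52 ± 0.20, adjusted p = 0.15) and of FoxK2 KD (-0.56 ± 0.18, adjusted p = 0.0876). With the GC and length correction the difference from FoxK2 KD was called (-0.56, adjusted p = 0.0317).

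Foxn3 (chr12:99190078-99563582, minus strand), the least abundant member at 15 to 79 counts a library, fell with insulin in the single knockdowns. In FoxK1 KD it went from 16.29, 16.5, 17.17 and 16.32 CPM to 11.08, 8.586, 6.35 and 7.052 CPM, and in FoxK2 KD from 15.43, 17.65, 15.56 and 16.92 CPM to 10.8, 11.0, 7.888 and 7.874 CPM, with no overlap in either. The changes were -0.99 ± 0.20 (adjusted p = 0.000328) and -0.79 ± 0.18 (adjusted p = 0.00153), and both calls held under every alternative and with each library left out. The Foxn3 change in FoxK1 KD, a fold of 0.503, was the largest of any member in the 13 planned comparisons.

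In Control the insulin effect on Foxn3 was -0.31 ± 0.21 (adjusted p = 0.299), with basal libraries at 7.372, 13.75, 13.15 and 14.11 CPM, and in DKD it was -0.41 ± 0.22 (adjusted p = 0.207). Without Control basal replicate 1, the library at 7.372 CPM, the Control effect was -0.46 (adjusted p = 0.0781). The difference from Control was -0.68 ± 0.30 in FoxK1 KD (adjusted p = 0.326), -0.48 ± 0.28 in FoxK2 KD (adjusted p = 0.887) and -0.10 ± 0.30 in DKD. In basal cells all libraries of the single knockdowns lay above all Control libraries, by 0.43 ± 0.18 in FoxK1 KD and 0.42 ± 0.17 in FoxK2 KD, without passing the test (adjusted p = 0.117 and 0.328), and by 0.28 and 0.27 without Control basal replicate 1. In DKD the basal change was 0.02 ± 0.19.

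**Figure D3:**
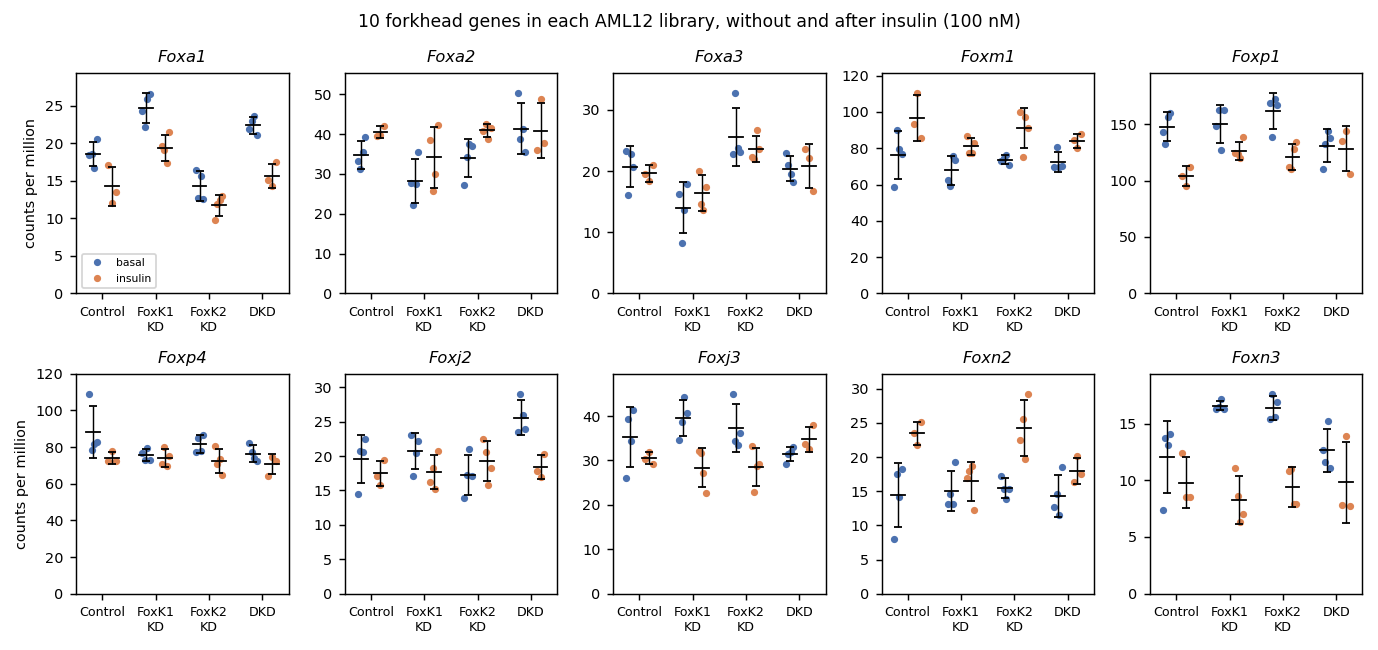
CPM of each of the 10 members in every library by siRNA group, for basal (blue) and insulin-treated (orange) cells; bars are means, whiskers SD, and each panel has its own axis from 0. Foxa1 is higher in all FoxK1 KD than in all FoxK2 KD libraries in each state, and Foxn3 in both single knockdowns lies above 15 CPM without insulin and at or below 11.08 CPM with it.

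Across the members, insulin called 4 of 10 in Control (2 up, 2 down), where 25.4% of all genes were called. In FoxK1 KD it called 3 (0 up, 3 down; 31.6% of all genes), in FoxK2 KD 5 (2 up, 3 down; 28.1%) and in DKD 2 (0 up, 2 down; 16.3%). Foxa1 fell with insulin in Control (-0.38 ± 0.14, adjusted p = 0.0491), in FoxK1 KD (-0.35 ± 0.13, adjusted p = 0.0339) and in DKD (-0.49 ± 0.14, adjusted p = 0.0127), and its value in FoxK2 KD was -0.29 ± 0.14 (adjusted p = 0.118). The Control call for Foxa1 held in 2 of 9 alternatives and was lost without Control basal replicate 1, 2 or 4 or Control insulin replicate 2 or 3 (adjusted p between 0.0625 and 0.238). That in FoxK1 KD was lost without FoxK1 KD basal replicate 3 or 4 or insulin replicate 1, 2 or 3 (0.0602 to 0.0953), and that in DKD without DKD insulin replicate 1 or 2 (0.0586 to 0.0597). No member was called in the difference of an insulin effect from that in Control: 0 in FoxK1 KD, where 0% of all genes were called, 0 in FoxK2 KD (0%) and 0 in DKD (1.54%). At an unadjusted p below 0.05 these differences held 1 (Foxn3), 0 and 1 (Foxp1) members, beside 1519, 625 and 1661 of all 11368 tested genes. DESeq2 and limma-voom called 0 members in each. A member that was called with insulin in one siRNA group and not in another is thus not shown to differ between them. In Control, FoxK1 KD and FoxK2 KD the insulin effect and the split of the basal libraries cannot be told apart, while in DKD both states lie on the same side of that split.

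**Figure D4:**
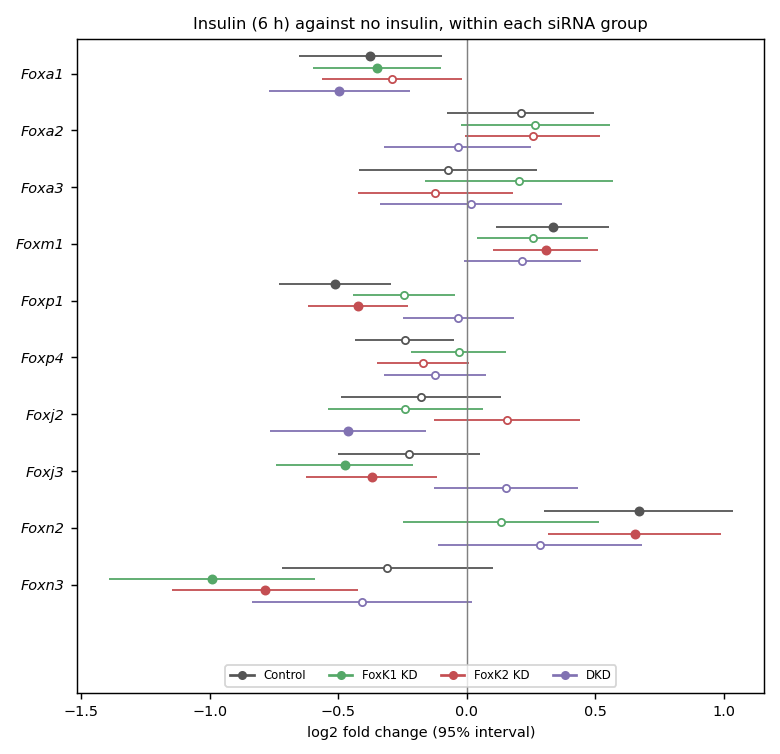
Log2 fold change of each member with insulin against no insulin within each of the 4 siRNA groups, with 95% intervals; filled points are called at an adjusted p below 0.05. Foxa1 is below 0 and Foxm1 and Foxn2 above 0 in all 4 siRNA groups, while Foxp1 is at -0.51 in Control and -0.03 in DKD.

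Outside the 10 members, 1 of the 8 other tested forkhead genes rose in DKD basal cells, where 21.1% of all genes were called, so the count is no result about these genes as a set. Foxj1, the factor that drives motile cilia, rose from a mean of 33.9 CPM to 43.8 CPM, by 0.36 ± 0.11 (adjusted p = 0.0154), with all DKD libraries above all Control libraries. It also rose in FoxK1 KD after insulin, by 0.48 ± 0.14 (adjusted p = 0.0406), and fell with insulin in Control by 0.55 (SE 0.129, adjusted p = 0.00173). Foxf2, Foxo1, Foxo3, Foxo4, Foxo6 and Foxq1 were not called in any knockdown against Control. Foxo6, with at most 36 counts in a library, came near in DKD basal cells, at 0.79 ± 0.29 (adjusted p = 0.0512), with overlapping groups. After insulin its change was 0.70 ± 0.37 in DKD (adjusted p = 0.428) and 0.74 ± 0.35 in FoxK2 KD (adjusted p = 0.789). In basal cells it was -0.24 in FoxK1 KD and -0.01 in FoxK2 KD, and -0.13 in FoxK1 KD after insulin. With insulin, 3 of the 8 fell in Control, where 25.4% of all genes were called. They were Foxj1, Foxo3 and Foxo4, the last by 0.72 (SE 0.145, adjusted p = 0.000322).

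Some members moved together over the 30 libraries. The highest Pearson correlations of log2 CPM were 0.642 between Foxm1 and Foxn2, 0.635 between Foxj3 and Foxn3 and 0.616 between Foxa2 and Foxa3, and the lowest was -0.614 between Foxp4 and Foxn2. The genes most like Foxa1 were Stim1 (0.886), Fgd3 (0.872) and Lrrk1 (0.847), those most like Foxp1 were Ube2h (0.875), Rest (0.863) and Ip6k1 (0.857), and those most like Foxj3 were Asah2 (0.805), Cxxc4 (0.783) and B230354K17Rik (0.775). These values describe 30 libraries that share groups and sequencing depth. Foxn2, Foxp1, Foxn3 and Foxj3 also share a low exonic GC content, between 41.22% and 46.23%, against 54.21% or more in the other members.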

How the data were processed

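Polyadenylated RNA of 30 AML12 libraries was made into cDNA libraries (NEBNext reagents) for Illumina sequencing. The submitters' processing notes name CASAVA 1.8, STAR 2.4.2a, featureCounts and the build GRCm38.p4, and the authors deposited raw counts per gene for each sample, with no normalization. Counts were not stated to use strand, so reads of overlapping antisense genes cannot be told apart. Total counts per library ranged from 2141460 to 5668270, and counts of 15 to 79 limit the precision of the lowest member, Foxn3.

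Groups were taken from the sample labels. Of 49089 identifiers, 48435 were matched to GENCODE M21 without version numbers for symbols, positions (GRCm38) and exonic lengths. Genes were filtered with filterByExpr (11368 kept), scaled with TMM and tested with edgeR 4.0.16 (quasi-likelihood, R 4.3.3) in 1 model over all 8 groups, with Benjamini-Hochberg adjustment over all tested genes. CPM and RPKM were computed from the TMM-scaled totals, and 95% intervals as 1.96 SE. The script was tested on simulated data made from the real means. Of genes changed 1.5-fold, it recovered 62% in DKD against Control in basal cells and 61% after insulin. For the difference of the DKD insulin effect from that in Control it recovered 28%. At 2-fold these shares were 84%, 73% and 68%. A gene that is not called can therefore still have changed by such folds. There were 13 planned comparisons and 2 added after seeing the data (FoxK1 KD against FoxK2 KD, in each insulin state).

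The 10 members, the gene lists and the rule for named genes were chosen with earlier results of these data known. Named were all members, Foxk1, Foxk2, other tested forkhead genes, the 3 largest called changes of the FoxM1 and FoxA lists in DKD and in Control with insulin, and the 3 genes most correlated with each of the 3 members called most often (ties ordered by adjusted p in DKD basal cells). Foxj2 is described beside them as a member. Some genes of these lists are not reported here by name.

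Alternatives were RLE scaling, DESeq2 1.42.0, limma-voom (limma 3.58.1), no count filter, only the groups compared in the fit, a replicate block, a GC and length correction (4 spline degrees of freedom), both together, an adjusted p below 0.25 as the study used (with a fold above 1.5 for insulin effects), and leaving out each library. Replicate numbers showed no pairing of the libraries over all groups pooled. Deviations from group means had a mean correlation of -0.0134 (highest 0.199) over 99 pairs with the same number and 0.0043 (highest 0.29) over 294 other pairs. Because all groups are pooled, these values cannot decide whether basal and insulin libraries within an siRNA group were paired. No libraries of a group were copies of each other: in a chi-square test of counts, the ratio of the statistic to its degrees of freedom was at least 1.71 in the 42 pairs. Promoters were read from RefSeq windows on GRCm38.p6.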

Additional observations from a re-analysis of the deposited data

Results flagged for a closer look

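In 5 of 60 sets of 4 libraries (each member in each group of 4), 1 library stood apart from the others by Dixon's test. Chance alone sets apart about 1 in 20 such sets. Control basal replicate 1 did so for Foxn3, at 7.372 CPM against 13.15 to 14.11 CPM in the others, and for Foxp4, at 109.2 CPM against 78.51 to 82.68 CPM. FoxK2 KD basal replicate 2 did so for Foxa3, at 32.71 CPM against 22.84 to 23.77 CPM, and for Foxp1, at 138.6 CPM against 167.0 to 172.5 CPM. DKD basal replicate 2 did so for Foxm1, at 80.57 CPM against 69.41 to 70.09 CPM. Foxa3 in FoxK1 KD against FoxK2 KD kept its call without FoxK2 KD basal replicate 2, as it did without each other library (adjusted p between 0.00122 and 0.0199, edgeR).

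The effects of the single knockdowns differed from each other in 3 values, each from a direct test that was added after seeing the data. Foxa1 was higher in FoxK1 KD than in FoxK2 KD by 0.80 (log2) in basal cells and by 0.74 after insulin, in 4 of 4 against 4 of 4 libraries each time. Foxa3 differed by -0.85 in basal cells, again without overlap. What lies behind these differences was not tested.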

How the results depend on the processing

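No called member changed its direction under any alternative. Of 19 calls, 6 held under all 9 alternatives and with each library left out: Foxn3 with insulin in FoxK1 KD and FoxK2 KD, Foxn2 with insulin in FoxK2 KD, and the 3 differences between FoxK1 KD and FoxK2 KD. The 0.25 setting asks a fold above 1.5 of insulin effects only, and for the other comparisons it merely loosens the threshold. Foxp1 with insulin in Control and in FoxK2 KD and Foxj3 with insulin in FoxK1 KD were lost in that setting alone. Members called against Control in basal cells changed in number in FoxK1 KD from 2 to 5 at an adjusted p below 0.25. They went to 1 with the GC and length correction, alone (8.65% of all genes) or with the replicate block (7.97%), and to 1 with no filter (4.49%). With only the groups compared they went to 0, where 0.396% of all genes were called, and with a library left out they were 0 to 2. In FoxK2 KD they went from 0 to 1 at 0.25. In DKD they went from 0 to 5 at 0.25 and to 1 with limma-voom (Foxj2, with 20.9% of all genes called). They went to 1 with the GC and length correction (Foxp4, 16.1%) and with that and the block (15.2%), and were 0 to 1 with a library left out. Of all genes, 26.6% passed 0.25 in FoxK1 KD, 3.59% in FoxK2 KD and 43.6% in DKD basal cells. After insulin the members called went from 0 to 3 in FoxK1 KD (15.1% of all genes) and to 1 in DKD (6.66%) at 0.25. They went to 1 in FoxK1 KD with the block and GC correction (Foxn2), where 4.48% of all genes were called. For FoxK1 KD against FoxK2 KD after insulin the count went from 1 to 3 at 0.25 (12.6% of all genes) and with only the groups compared (6.33%). It went to 2 with no filter (1.75%) and with the GC correction, alone (4.93%) or with the block (4.43%). For insulin effects, the 0.25 threshold with its fold of 1.5 left 1 in Control, 1 in FoxK1 KD, 2 in FoxK2 KD and 0 in DKD. Of all genes it left 12%, 12.9%, 10.7% and 8.49% in the same order. Only the groups compared gave 1 member in Control (9.69% of all genes) and 5 in FoxK1 KD (34.8%). In DKD the replicate block gave 1 in place of 2, alone (15.3% of all genes) or with the GC correction (16.9%), and no filter gave 0 (7.01%). With a library left out the insulin counts were 2 to 4 in Control, 2 to 4 in FoxK1 KD, 3 to 5 in FoxK2 KD, 0 to 2 in DKD and 0 to 1 for DKD minus Control. The causes were not tested. The replicate numbers showed no pairing over all groups pooled, and pairing within an siRNA group was not tested apart. The block ended 2 member calls, Foxa1 with insulin in Control and Foxj2 with insulin in DKD.

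Over all genes, counts past the threshold moved by more than 1.5 times as follows. With only the groups compared they went from 920 to 45 in FoxK1 KD, 43 to 1 in FoxK2 KD and 2398 to 1307 in DKD (basal), 138 to 40 in DKD after insulin, 2890 to 1102 for insulin in Control, 175 to 32 for DKD minus Control and 413 to 720 for FoxK1 KD against FoxK2 KD after insulin. In FoxK2 KD basal cells 43 became 83 with DESeq2, 117 with the GC correction, 85 with that and the block and 238 with no filter, and after insulin 3 became 10 with DESeq2 and 14 with no filter. For DKD minus Control 175 became 115 and 110 with the GC correction without and with the block and 359 with no filter. For FoxK1 KD minus Control 0 became 24 with DESeq2 and 174 with no filter, and for FoxK2 KD minus Control 0 became 31 with no filter. At 0.25 the basal counts were 3028, 408 and 4952, those after insulin 1717, 27 and 757, the insulin effects 1367, 1463, 1211 and 965 (with the fold), the differences 176 in FoxK1 KD and 459 in DKD, and the single knockdowns against each other 1876 and 1435.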
